A study of Mus musculus with 8 samples.

Results

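Cytl1, Angptl7, Myoc, Cilp and Prg4, 5 of the 26075 genes seen in at least 3 cells, were followed across the cell classes and subtypes of mouse femur. They had been chosen by their levels in these data, which were lower in fibroblasts or chondrocytes after fracture, or as genes of the joint surface. Their fall after fracture is therefore how they were chosen, and it is given here as a description without a test. All cells came from the femurs of C57BL/6 female mice aged 12 weeks. Control mice were wild-type and unfractured. In Fracture mice the left leg had been broken by bending at 10 weeks and held with an intramedullary nail, and cells were taken at day 14. Bones were stripped of surrounding tissue, crushed and digested with collagenase, and cells bearing blood lineage markers, CD45 or CD117 were removed with magnetic beads. The samples were labelled Control 1 and 2 and Fracture 1 and 2, each with rep1 and rep2, 8 in all. Each number was read as 1 cell preparation and each rep as 1 of its 2 libraries, which the labels do not state. Gene counts differed between the 2 libraries of a preparation by more than random sampling of counts. Chi-square per degree of freedom was 5.08 to 7.11. The number of mice behind a preparation is not given in the sources used here, so the spread between preparations may be technical, and n = 2 preparations per group below.

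Synovial joints are lined by cells that secrete lubricant and matrix proteins. Superficial chondrocytes of articular cartilage and the lining fibroblasts of the synovium both secrete lubricin, the product of Prg4, which lets opposed surfaces slide. Cilp encodes cartilage intermediate layer protein, a matrix protein that binds growth factors of the TGF-β and IGF families. Cytl1 encodes a small secreted cytokine-like protein first known from blood progenitors and abundant in cartilage. Angptl7 encodes a secreted glycoprotein of the angiopoietin-like family, and Myoc encodes myocilin, a secreted olfactomedin-domain protein. The last 2 are best known from the outflow tissue of the eye.

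The 5 genes are protein-coding and lie on 4 chromosomes of the GRCm38 build (GENCODE M21 annotation). Cytl1 lies at chr5:37735519-37739820 on the plus strand, Angptl7 at chr4:148495183-148500460 on the minus strand and Myoc at chr1:162639155-162649693 on the plus strand. Cilp lies at chr9:65265180-65280605 on the plus strand and Prg4 at chr1:150449412-150466165 on the minus strand. Because these genes were low together in Fracture cells, the 100 bases before their start sites are shown from RefSeq (GRCm38.p6), which held a promoter window for 4 of the 5. They read 5′ to 3′ on the strand of the gene, at chr5:37735419-37735518 (+), chr4:148500463-148500562 (-), chr1:162639050-162639149 (+) and chr9:65265080-65265179 (+) in turn, with the letters TATNNAA in capitals.
Cytl1: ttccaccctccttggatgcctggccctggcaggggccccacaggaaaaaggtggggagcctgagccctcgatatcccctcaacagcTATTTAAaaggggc
Angptl7: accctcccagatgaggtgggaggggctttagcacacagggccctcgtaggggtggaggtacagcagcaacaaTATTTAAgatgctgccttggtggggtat
Myoc: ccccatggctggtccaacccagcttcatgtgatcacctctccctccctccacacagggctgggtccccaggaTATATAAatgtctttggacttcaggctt
Cilp: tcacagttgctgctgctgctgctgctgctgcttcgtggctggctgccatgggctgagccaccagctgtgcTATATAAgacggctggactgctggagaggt

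All 4 windows held the letters TATNNAA on the strand of the gene, starting 14, 28, 28 and 30 bases before the start of Cytl1, Angptl7, Myoc and Cilp. The same letters, starting 40 to 10 bases before the start, were found in 3.04% of 32851 mouse promoters. Letters and window were chosen after the sequences had been seen, so the count is a description. Other words were searched on both strands over the 250 bases before the start. TATAAA, present in 12.4% of promoters, was found in Myoc, where it overlapped the letters shown. TGTGGT (14.0%) was found in Cilp and GGGCGG (32.7%) in Cytl1, both on the opposite strand. TGANTCA (6.75%), ACAANGG (11.6%) and TGACGTCA (1.55%) were in none of the 4 windows.

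After filters on genes and mitochondrial reads, 45390 cells remained. The Control libraries held 55721114 to 76437145 UMIs (unique molecular identifiers, 1 per captured RNA molecule) and the Fracture libraries 68232022 to 87991081. Control tables reached down to barcodes with 1 to 3 UMIs and 84.7% to 86.7% of them passed the filters, while the smallest Fracture barcodes held 1900 to 2681 UMIs and 99.5% to 99.9% passed. The 2 libraries of a preparation shared 13 to 23 cell barcodes. Clustering, from which the 5 genes were left out, gave 2015 fibroblast-like and 16702 chondrocyte-like cells. The fibroblast-like class was led by Clec3b, Mfap5, Igfbp6 and Dpt, and 8 of 8 fibroblast markers were higher in it. It held 379 and 133 cells in Control 1 and 2 and 687 and 816 cells in Fracture 1 and 2. The chondrocyte-like class joined 2 clusters, with 10 of 10 and 9 of 10 chondrocyte markers higher, and held 2080, 687, 6808 and 7127 cells in the same order. Unless stated otherwise, levels are given in plain CPM, the UMIs of a gene per 1000000 UMIs of all cells of a class in a preparation. In every such quartet of values the order is Control 1, Control 2, Fracture 1 and Fracture 2.

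In Control bone all 5 genes were highest in fibroblast-like cells, and 4 of them came next in chondrocyte-like cells. The lubricant gene Prg4 stood at 14991 and 15951 CPM in Control fibroblast-like cells and at 2731 and 3406 CPM in Fracture ones. The matrix gene Cilp stood at 9173, 5219, 449 and 486 CPM. Cytl1 stood at 9519, 6486, 46.8 and 48.0 CPM. In all 3 genes both Fracture values lay well below both Control values. Angptl7 stood at 737 and 426 CPM in Control and at 1.59 and 5.88 CPM in Fracture, where the values rested on 12 and 56 UMIs. Myoc stood at 268, 287, 8.33 and 7.46 CPM, with 63 and 71 UMIs in the Fracture preparations. Few Fracture cells carried these UMIs. Cells of at least 1000 CPM held 92.1% and 70.4% of the Myoc UMIs in 3 cells each, and 84.2% and 74.8% of the Cytl1 UMIs in 4 and 5 cells. In Fracture 2, 1 such cell held 57.1% of the Angptl7 UMIs. The Control and Fracture values of Angptl7 and Myoc did not overlap either.

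The sizes of the falls covered a wide range. After TMM scaling, which corrects for differences in composition, the log2 difference of Fracture from Control in fibroblast-like cells was -7.28 ± 0.32 (SE, n = 2 preparations per group) for Cytl1, a 155-fold difference. Angptl7 differed by -7.19 ± 0.92, Myoc by -4.97 ± 0.07, Cilp by -3.81 ± 0.45 and Prg4 by -2.26 ± 0.17 on the log2 scale. Thus 4 of the 5 genes were at least 10-fold lower, and Prg4 was 4.8-fold lower. Of all 12264 genes tested in this class, 1.45% were at least 10-fold lower and 32.4% had both Fracture values below both Control values. Since the genes were picked for these values, nothing is read from that comparison. An SE from 2 values per group can be small by accident. For Myoc it does not show that few cells carried the Fracture UMIs. Over all cells the 2 libraries of Fracture 1 held 34 and 187 Myoc UMIs.

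Other cell types' markers moved within the fibroblast-like class too. The summed level of 10 chondrocyte markers was 4054, 3381, 13864 and 11999 CPM, and that of 7 erythroid markers 49.7, 203, 1274 and 1451 CPM. The sum of 5 basophil markers went the other way, at 702, 212, 4.76 and 6.52 CPM, as did 4 Schwann cell markers at 609, 971, 2.91 and 4.52 CPM. The 8 fibroblast markers stayed at 6418, 7117, 6239 and 6024 CPM. The part of these other cells in the falls of the 5 genes was not tested at the level of the class. Subclusters are described below.

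In chondrocyte-like cells Cytl1 was the gene with the clearest level in both groups, at 2209, 2474, 151 and 158 CPM. Prg4 stood at 368, 424, 20.4 and 53.5 CPM and Cilp at 153, 116, 16.9 and 19.9 CPM. Myoc stood at 55.7, 54.3, 1.5 and 1.76 CPM. For these 4 genes both Fracture values were again below both Control values, with log2 differences of -3.77 ± 0.10 for Cytl1, -3.41 ± 0.70 for Prg4, -2.68 ± 0.23 for Cilp and -4.57 ± 0.10 for Myoc. Angptl7, at 2.96, 0.806, 0.684 and 0.677 CPM, was close to its level in erythroid-like cells, which should not make it, at 2.32, 0.846, 0.512 and 1.09 CPM, and its difference of -0.75 ± 0.69 was near its error. Of the 2 classes, Angptl7 thus stood clear of the erythroid-like level in Control fibroblast-like cells only. In this class 3 of the 5 genes were at least 10-fold lower, as were 0.703% of 17065 genes, while 37.3% had both Fracture values below both Control values. Prg4 was the least certain of the 3, since its difference was -2.71 without Fracture 1 and -0.82 ± 1.27 in classes made without integration. Marker sums moved in this class too, at 7034, 9370, 13106 and 13968 CPM for 7 osteoblast markers. Those of 7 erythroid markers were 143, 379, 957 and 999 CPM and those of 5 basophil markers 446, 226, 3.44 and 9.27 CPM. The 10 chondrocyte markers stood at 92309, 83974, 98033 and 97029 CPM. The part of other cells in the falls was not tested.

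Most UMIs of each gene lay in these classes. In Control, fibroblast-like cells held 86.8% and 82.5% of all Angptl7 UMIs, 82.6% and 81.8% of Cilp UMIs and 77.2% and 78.8% of Prg4 UMIs. Chondrocyte-like cells held more of the Cytl1 UMIs, at 67.6% and 77.0%, and of the Myoc UMIs, at 64.6% and 63.6%, because this class is larger. After fracture the chondrocyte-like share of Cytl1 was 95% and 93.7%, against 2.54% and 2.7% in fibroblast-like cells. For Prg4 the fibroblast-like share was 88.5% and 82.6% in Fracture, above both Control values.

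Outside these classes levels were low, and free RNA in the droplets has to be kept in view. Over all Control cells Cytl1 stood at 764 and 416 CPM, and erythroid-like cells, which should lack it, still carried 24.5 and 4.34 CPM. Endothelial-like cells held 164, 49.5, 19.6 and 34.0 CPM of Cytl1, so Control was higher, with a log2 difference of -1.67 ± 0.95. Bone marrow stromal (BMSC-like) cells carried Cilp at 27.8, 1.28, 34.5 and 45.2 CPM and Prg4 at 45.6, 9.75, 61.8 and 60.2 CPM, where both Fracture values were above both Control values. Endothelial-like cells carried Cilp at 1.47 to 12.3 CPM and Prg4 at 5.65 to 25 CPM, and erythroid-like cells carried Cilp at 6.19, 1.12, 4.10 and 1.82 CPM and Prg4 at 12.9, 3.50, 4.10 and 5.45 CPM, with overlapping groups in both classes. In BMSC-like cells the sum of 8 fibroblast markers was 84.4, 37.5, 837 and 915 CPM. The sum of 7 BMSC markers went down in this class, at 26389, 28223, 1912 and 2253 CPM. The 10 chondrocyte markers stood at 774, 345, 3152 and 3233 CPM and 6 smooth muscle markers at 307, 206, 1370 and 1087 CPM. The part of these changes in the Cilp and Prg4 values was not tested.

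**Figure D1:**
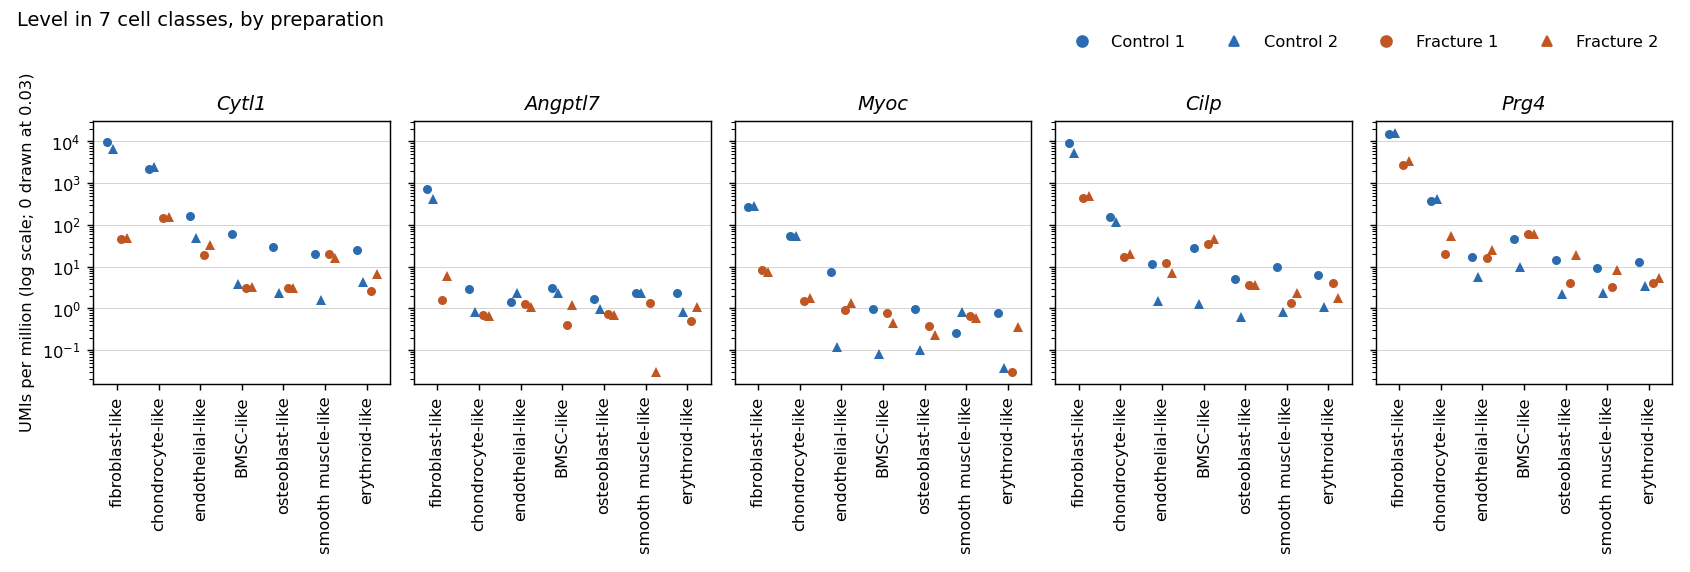
Level of each gene in 7 cell classes, in CPM on a log axis with 0 drawn at 0.03, with 1 point per preparation (blue Control, orange Fracture). The Control points of all 5 genes are highest in fibroblast-like cells, where every Fracture point lies below every Control point, while in BMSC-like cells the Fracture points of Cilp and Prg4 lie above those of Control.

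To ask whether the falls ran through every subtype, each class was divided after integration of the 4 preparations, a step that lines up cells of different samples by shared expression. Fibroblast-like cells gave 7 subclusters, of which 4 held at least 20 cells in all 4 preparations. The Control levels were uneven. Cytl1 was highest in subcluster 1, led by the cartilage genes Col2a1 and Lect1 and with 10 of 10 chondrocyte markers higher, at 20161 and 20440 CPM in Control and 166 and 171 CPM in Fracture. Cilp was also highest there, at 15031, 12744, 836 and 1025 CPM, and Prg4 stood at 25887, 25008, 1025 and 1126 CPM. Angptl7 was spread over subclusters 0 (Cxcl3 and Saa3), 1 and, in Control 1 alone, 2 (Kera and Tnmd), where Control 1 held 1189 CPM and Control 2 held 0.

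Myoc did not follow this pattern. Its Control level was highest in subcluster 3, adventitial-like cells with 6 of 6 adventitial markers higher and led by C3, Sfrp4, Cxcl9 and Pi16, at 1393 and 980 CPM. Its next leading genes, among them Hp, Cxcl12 and Lpl, are shared with marrow stromal cells. There it stood at 60.6 and 48.8 CPM in Fracture, a log2 difference of -4.41 ± 0.30 and a 21.3-fold lower level. These cells held 67.2% of the Myoc UMIs of Control fibroblast-like cells and 91.8% of those of Fracture. In the same adventitial-like cells Cilp was not lower, at 302, 273, 467 and 352 CPM, a log2 difference of 0.50 ± 0.22. This depended on resolution, since Cilp in the adventitial-like subcluster stood at 2117, 345, 306 and 242 CPM at 0.15 and at 635, 392, 711 and 544 CPM at 0.6.

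Prg4 had a further exception. The synovial lining-like subcluster 5, with 6 of 6 lining markers higher and Clic5 and Tspan15 among its leading genes, held 30 Control and 66 Fracture cells. The pooled Control cells carried 49302 CPM of Prg4, Fracture 1 carried 48390 CPM and Fracture 2 carried 53793 CPM. The lining-like cells held 24.4% of the Prg4 UMIs of Control fibroblast-like cells and 67.1% of those of Fracture. Of the 4 subclusters that could be compared in all preparations, Cytl1 and Myoc had both Fracture values below both Control values in 4. Angptl7, Cilp and Prg4 did so in 3. The share of all genes that do so was not computed by subcluster, so these counts are a description. For Cytl1 and Angptl7 nothing is read from subclusters 2 and 3, where Control 2 held 0 or 1 UMI of each gene.

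Chondrocyte-like cells gave 10 subclusters, and 8 held enough cells, among them subcluster 7, which was led by haemoglobin genes. Cytl1 was lower in Fracture in all 8, by log2 differences of -5.21 to -1.77, which are 37.0-fold and 3.42-fold. The widest gap was in subcluster 4, led by Slc40a1, Clu, Ogn and Abi3bp, where Cytl1 stood at 6632, 6200, 183 and 163 CPM. The narrowest was in subcluster 1, growth plate-like cells marked by serpins, at 1634, 1751, 456 and 536 CPM. Hypertrophic-like cells of subcluster 2, the mature cells that make Mmp13, stood between them at 2775, 4140, 139 and 146 CPM. Fracture levels of Cytl1 were therefore highest in the growth plate-like cells. The fall in hypertrophic-like cells depended on integration. In the hypertrophic-like subcluster made without it, Cytl1 stood at 342, 90.6, 136 and 129 CPM. Its groups overlapped there, with a log2 difference of -0.41 ± 0.96. Cycling cells of that division stood at 1087, 1172, 128 and 117 CPM.

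In Control, most Myoc and Prg4 UMIs of the chondrocyte-like class lay in subcluster 4. At a finer resolution of 0.6 they came apart, with 68.3% of Myoc but 2.7% of Prg4 in one subcluster and 29.7% and 81.2% in another. In subcluster 4 at the main resolution of 0.3, Myoc stood at 535, 624, 12.4 and 8.10 CPM, and this subcluster held 96.9% of the Control Myoc UMIs of the class. Prg4 stood at 2620, 4797, 94.5 and 124 CPM, with 79.7% of its Control UMIs and 30.6% of its Fracture UMIs there. Cilp stood at 736, 749, 56.4 and 82.6 CPM with 49.9% of its Control UMIs. It reached 889 CPM in 37 Control 1 cells of subcluster 9, led by stromal genes, and had no UMI in the 6 Control 2 cells there. Angptl7 was low throughout, and the 31 Control cells of subcluster 8, led by osteoblast genes, held 37.4% of its Control UMIs, all 37 of them from Control 1, where 2 cells of the class carried 53.9% of the UMIs. Subcluster 4 had only 2 of 7 articular markers higher and was given no cell type name. For Prg4 and Myoc both Fracture values lay below both Control values in 1 of the 8 subclusters, subcluster 4 itself. Cilp did so in 5 and Angptl7 in 4. The share of all genes that do so was not computed here either. In growth plate-like cells Prg4 stood at 4.86, 20.7, 10.3 and 279 CPM, and Fracture 2 stood apart from the rest. The placing depended on resolution, since at 0.6 the growth plate-like subcluster held 1.02% of the Fracture Prg4 UMIs of the class and the subcluster led by Slc40a1 and Chi3l1 held 70.8%, at 92.4 and 529 CPM. In Fracture 2, 12 chondrocyte-like cells of at least 1000 CPM of Prg4 together stood at 42377 CPM, against 4924 CPM in 18 such cells of Fracture 1.

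**Figure D2:**
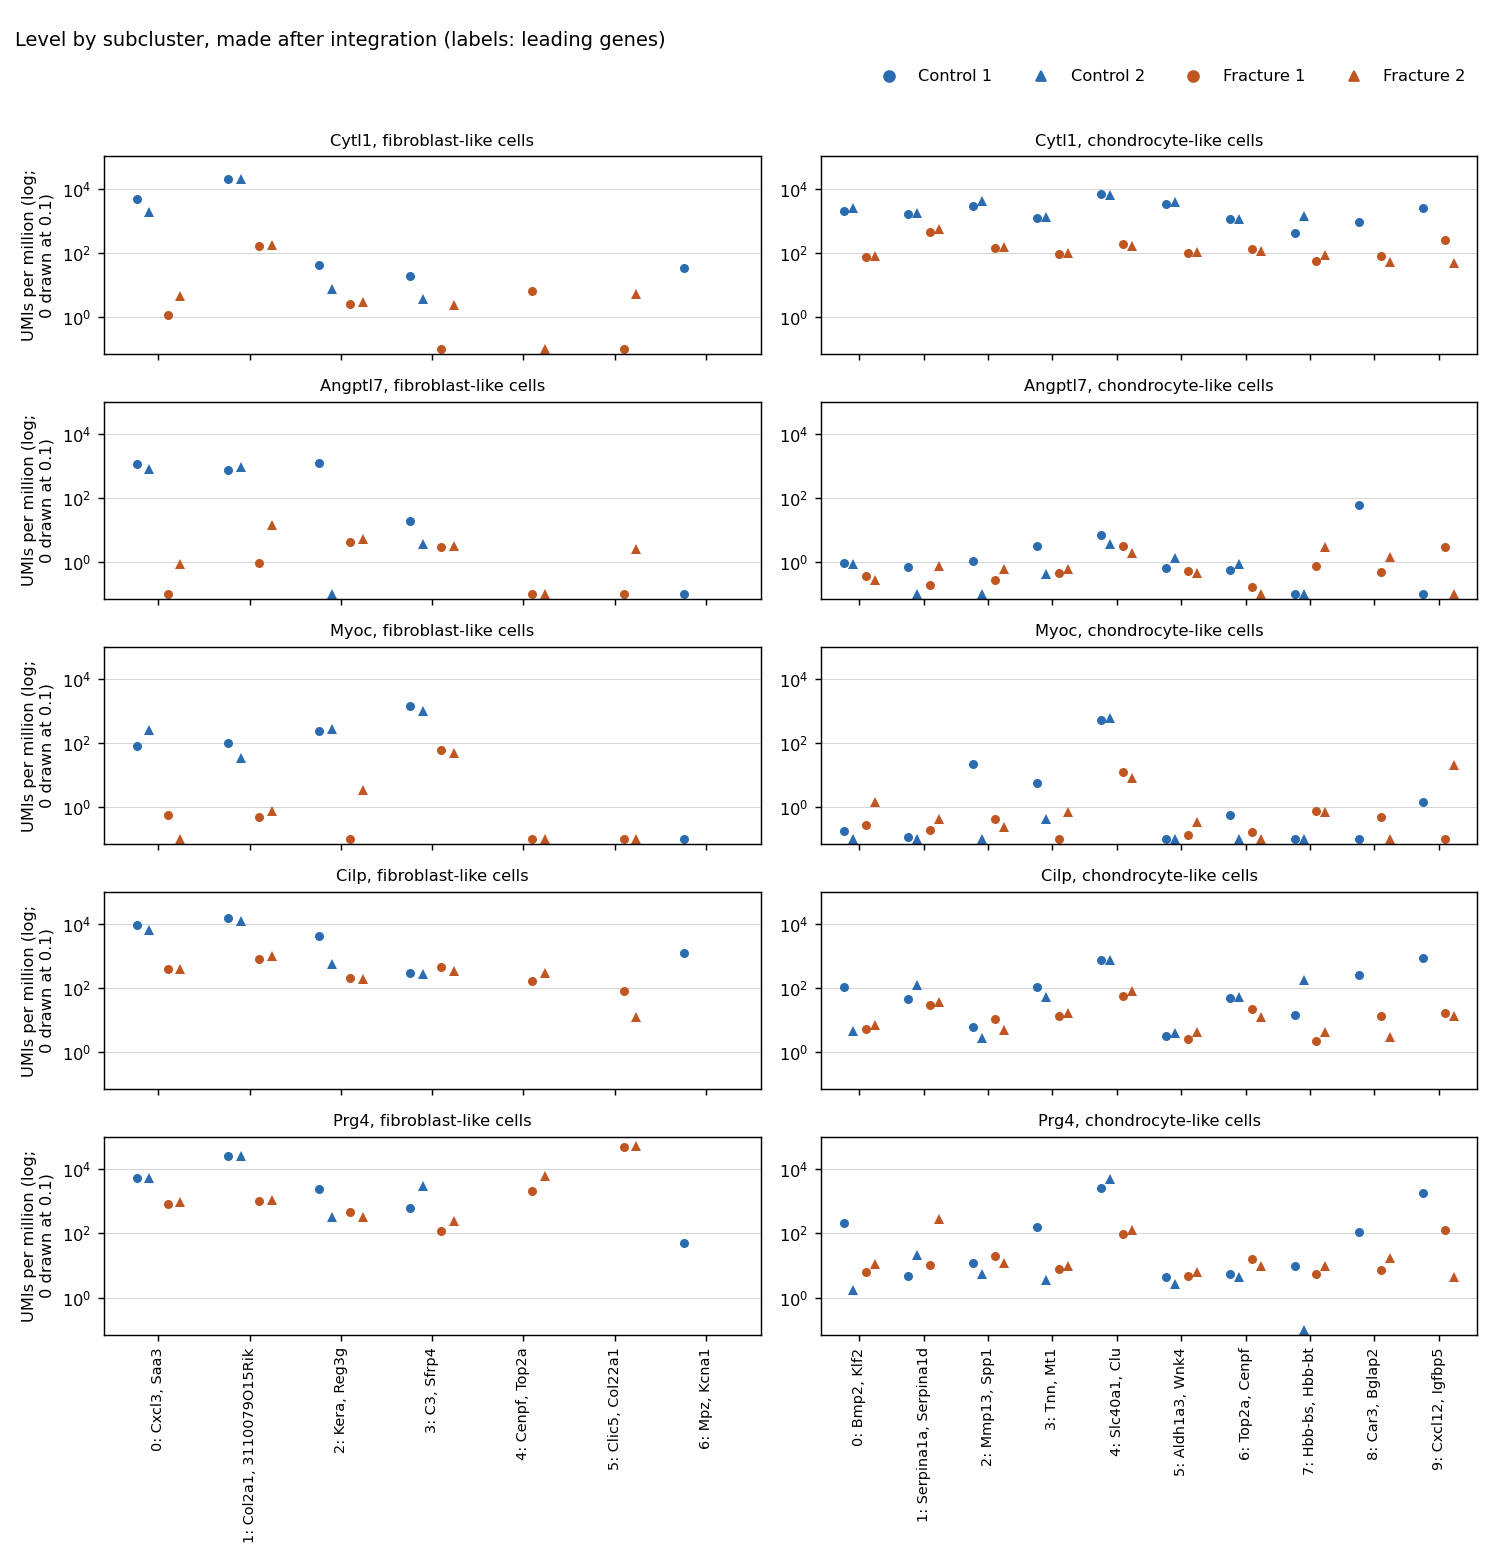
Level of each gene by subcluster made after integration, in CPM on a log axis with 0 drawn at 0.1, with 1 point per preparation that holds at least 20 cells of the subcluster (blue Control, orange Fracture). Cytl1 is lower in Fracture in each chondrocyte-like subcluster shown for all 4 preparations, Myoc is highest in fibroblast-like subcluster 3, and the Prg4 points of lining-like subcluster 5 come from Fracture only because no Control preparation reached 20 cells.

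Integration can place unlike cells of the 2 groups in 1 subcluster, so the fibroblast-like cells were also divided without it. This was chosen after the levels had been seen. Subcluster 2 of that division was articular-like, with 5 of 7 articular markers higher and Npy, Clu, Chad, Vit and Cilp2 among its leading genes. It held 212 and 44 Control cells, 55.9% and 33.1% of the class, and 8 and 5 Fracture cells, 1.16% and 0.613%. Genes that set this subcluster apart, such as Clu and Vit, themselves differed between the groups, so these shares say where the UMIs lay and do not measure a change in cell number. Fewer cells of a type and less of its RNA per cell cannot be told apart here.

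Nearly all Control UMIs of 3 genes lay in these articular-like cells. They held 99.5% of the Cytl1, 99.0% of the Angptl7 and 96.6% of the Cilp UMIs of Control fibroblast-like cells, with 72.2% of Prg4 and 27.9% of Myoc. The levels inside were alike in both Control preparations, at 14941 and 16825 CPM for Cytl1, 1147 and 1116 CPM for Angptl7, 13987 and 13144 CPM for Cilp and 19339 and 21766 CPM for Prg4. A UMI of Cilp was present in 242 of the 256 Control cells, one of Prg4 in 247, one of Cytl1 in 182, one of Angptl7 in 112 and one of Myoc in 38. In the 13 Fracture cells of this subcluster the counts were 12, 13, 7, 3 and 1.

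Inside the articular-like cells, levels in the few Fracture cells were uneven. The pooled Fracture cells stood at 12254 CPM of Cilp against 13808 CPM in Control, and at 19358 CPM of Prg4 against 19854 CPM. Cytl1 stood at 2826 against 15341 CPM, Angptl7 at 323 against 1140 CPM and Myoc at 8.97 against 137 CPM. Of the Fracture UMIs behind these values, 271 of 315 for Cytl1 came from the 8 cells of Fracture 1 and 34 of 36 for Angptl7 from the 5 cells of Fracture 2, and Myoc had 1. Cilp (605 and 761 UMIs) and Prg4 (1086 and 1072 UMIs) came from both. All rest on 13 cells, and other markers differed in them as well. The 7 articular markers summed to 2844 CPM against 6036 CPM in Control and the 8 fibroblast markers to 1256 against 4020 CPM. The 10 chondrocyte markers summed to 11437 against 5062 CPM. The 4 hypertrophic markers summed to 16936 against 8066 CPM, above the articular sum in both groups. The part of these markers in the levels was not tested.

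Outside the articular-like cells 3 genes had both Fracture values below both Control values, namely Myoc at 498, 375, 8.40 and 7.39 CPM, Prg4 at 7429, 12369, 2609 and 3310 CPM and Cytl1 at 87.3, 118, 11.1 and 43.6 CPM. The groups overlapped for Cilp, at 800, 339, 373 and 408 CPM, and for Angptl7, at 25.3, 1.23, 1.33 and 2.32 CPM. The share of all genes with non-overlapping groups in these cells was not computed, so nothing is read from the count. In the adventitial-like cells of this division Myoc stood at 1099, 805, 213 and 106 CPM, with a UMI in 31 of 110 Control and 11 of 86 Fracture cells. Other markers moved in these cells too, with sums in pooled Control and Fracture cells of 2597 and 1064 CPM for 7 BMSC markers, 361 and 1972 CPM for 10 chondrocyte markers, 313 and 4074 CPM for 5 callus markers and 506 and 6.93 CPM for 5 basophil markers, while 8 fibroblast markers stood at 15833 and 14096 CPM. Their part in the Myoc values was not tested. In the lining-like cells Prg4 was at 45747 CPM in 38 pooled Control cells and at 50450 CPM in 65 pooled Fracture cells, with a UMI in 37 and 65 of them. The gap in adventitial-like Myoc was narrower than after integration, at 967 CPM in pooled Control and 141 CPM in pooled Fracture cells. Cilp stood at 554, 344, 877 and 418 CPM in the adventitial-like cells, so its groups overlapped. Prg4 of lining-like cells differed little between the pooled cells of the 2 groups in this division.

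**Figure D3:**
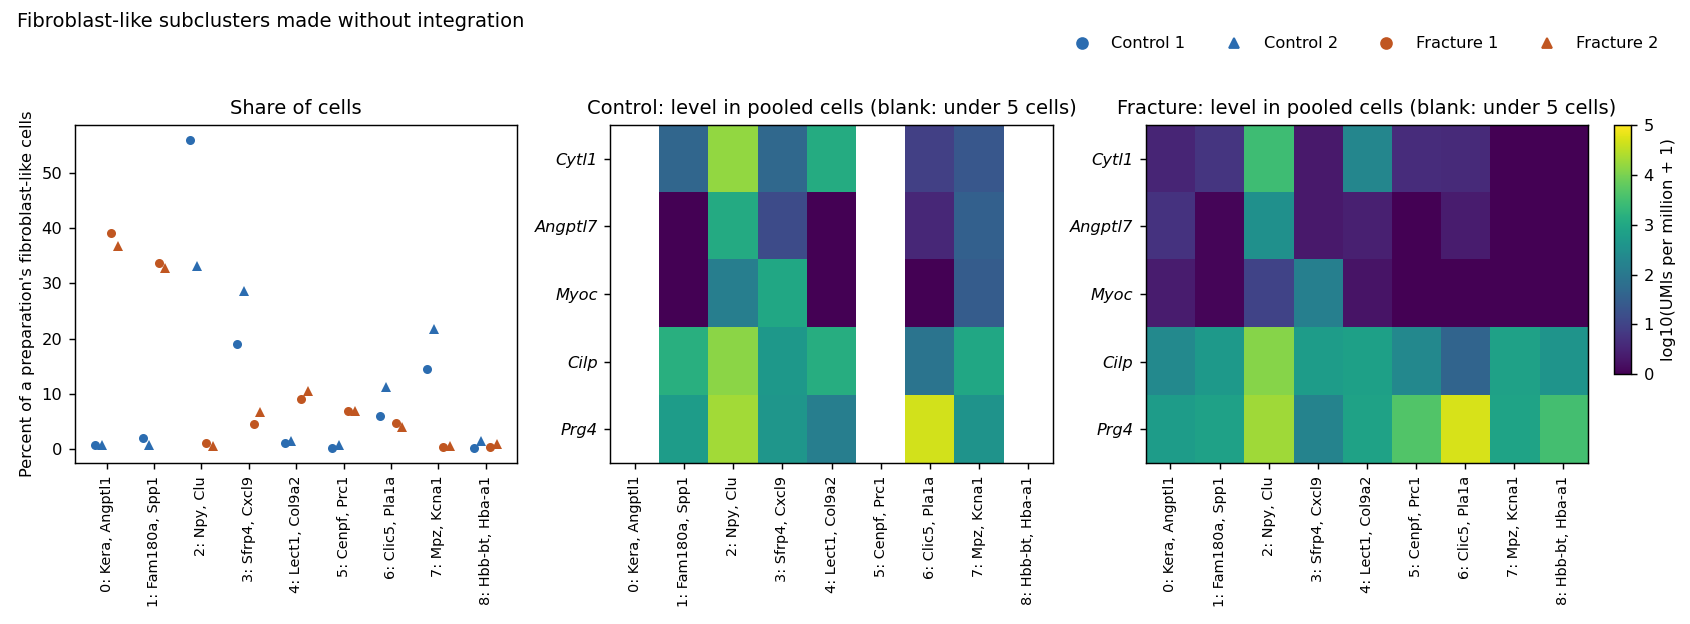
Left, the share of each preparation's fibroblast-like cells in each subcluster made without integration, in percent, with 1 point per preparation. Middle and right, the level of the 5 genes in pooled Control and pooled Fracture cells as log10(CPM + 1), blank under 5 cells. Subcluster 2 holds 55.9% and 33.1% of Control but 1.16% and 0.613% of Fracture cells and carries Cytl1, Angptl7, Cilp and Prg4, while lining-like subcluster 6 carries Prg4 in both groups.

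The class differences were then set against a fixed mix of cells, by weighting each preparation to the mean Control mix of subclusters. With the integrated subclusters the log2 differences in fibroblast-like cells were -7.02 for Cytl1, -7.27 for Angptl7, -4.84 for Myoc, -3.76 for Cilp and -1.49 for Prg4. With the subclusters made without integration they were -3.00, -2.88, -2.82, -0.13 and 0.00, although the last set rests on the 8 and 5 articular-like Fracture cells. The 2 Fracture preparations then differed widely, at 2188 and 468 CPM of Cytl1 and at 17.0 and 357 CPM of Angptl7. The second setting thus gave values near 0 for Cilp and Prg4 and smaller differences than in the class for the other 3 genes. It reset the weight of every subcluster, lining-like cells included, and its subclusters were set apart by genes that themselves differed between the groups, so cell mix and level per cell cannot be told apart by it. In chondrocyte-like cells the 2 settings gave -3.45 and -1.09 for Cytl1, -4.82 and -2.21 for Myoc, -2.56 and -0.80 for Cilp and -3.19 and -0.16 for Prg4. Here the second set leaned on a serpin-led subcluster with 81.8% and 78.9% of Control but 3.10% and 3.33% of Fracture cells, in which Cytl1 stood at 2449, 2749, 1188 and 1528 CPM. The low Prg4 difference of that setting rested on Fracture 2, at 1905 CPM against 92.2 CPM in Fracture 1.

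Shares of cells with a UMI told how many cells carried each gene. Median depth was 6996 UMIs in Control and 10184 UMIs in Fracture fibroblast-like cells, so every cell was first thinned to 1000 UMIs, which left out 8 shallower Control cells. Cytl1 was detected in 35.5%, 25.8%, 1.02% and 0.980% of fibroblast-like cells, Angptl7 in 20.7%, 9.09%, 0.437% and 0.613% and Myoc in 9.95%, 9.85%, 0.582% and 0.490%. Erythroid-like cells, at median depths of 6559 and 7124 UMIs, gave 3.69%, 0.887%, 0% and 0.704% for Cytl1. The Fracture shares of Cytl1 in fibroblast-like cells, from 7 and 8 cells, were thus small, against 0 and 2 erythroid-like cells. The UMIs per positive cell were not alike. Fracture fibroblast-like cells with Cytl1 held 5.57 and 5.0 UMIs of it, and Control erythroid-like ones 1.0 and 1.06. Cilp, at 59.7%, 36.4%, 18.2% and 18.9%, and Prg4, at 61.0%, 48.5%, 25.9% and 26.7%, stayed far above the erythroid-like shares in Fracture.

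The number of UMIs in a positive cell was lower as well. A fibroblast-like cell with Cilp held 13.9, 12.1, 2.78 and 2.64 UMIs of it per 1000, one with Cytl1 24.2, 19.9, 5.57 and 5.0 UMIs, and one with Prg4 19.6, 25.7, 10.3 and 12.3 UMIs. Cells of at least 1000 CPM of Cilp made up 59.6%, 36.1%, 11.1% and 10.8% of the class, and their own level was 13702, 13206, 3185 and 3608 CPM. Without thinning the share with Cilp was 64.6%, 38.3%, 44.0% and 46.4%, so that the groups overlapped, whereas the shares with Prg4, at 74.4%, 57.9%, 51.5% and 54.3%, did not. In chondrocyte-like cells Cytl1 was detected in 42.3%, 45.4%, 8.15% and 8.45% of thinned cells, far above the erythroid-like background, and Cilp in 4.83%, 4.82%, 1.26% and 1.22%.

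In Control, Cytl1 and Angptl7 were mostly found in cells that also held Cilp or Prg4. Of fibroblast-like cells with Cytl1, 90.9% and 85.3% also held Cilp and 91.7% and 94.1% also held Prg4. Of those with Angptl7, 90.9% and 83.3% held Cilp. Of cells with Cytl1, 23.5% and 11.8% held Angptl7 and 6.82% and 8.82% held Myoc, as did 11.7% and 16.7% of cells with Angptl7. These shares were of the size seen in the whole class, where Angptl7 was detected in 20.7% and 9.09% of cells and Myoc in 9.95% and 9.85%. Of cells with Angptl7, 40.3% and 33.3% held Cytl1. Cells with both Cilp and Prg4 made up 48.7% and 32.6% of the class in Control and 7.57% and 6.62% in Fracture. Among Fracture cells with Cilp the share that also held Prg4 was 41.6% and 35.1%, against 81.5% and 89.6% in Control. Both Fracture values of joint detection of the lubricant and the matrix gene lay below both Control values.

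**Figure D4:**
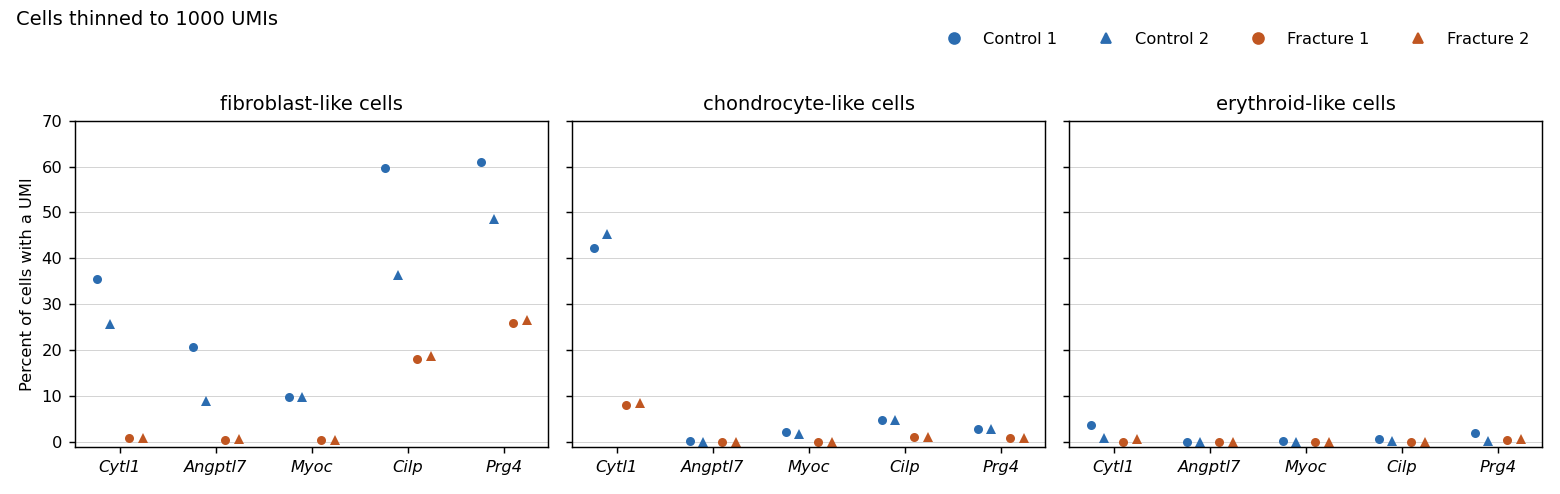
Share of cells with at least 1 UMI of each gene after thinning to 1000 UMIs, in percent, by cell class and preparation (blue Control, orange Fracture). In fibroblast-like cells all Control points lie above all Fracture points, Cytl1 keeps shares of 8.15% and 8.45% in Fracture chondrocyte-like cells, and erythroid-like cells show the background.

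Across 59 sums of a subtype in a preparation, the genes most like each of the 5 were found among 10682 genes by Pearson's r on log2(CPM + 1). The sums share libraries and preparations, so r is a description. They hold both groups, so a gene can be alike because it falls too. Cytl1 was closest to Mall and Ivns1abp (both 0.88), followed by Chad (0.87), which encodes a cartilage matrix protein. Angptl7 was closest to Galnt15 (0.87) and also near the neuropeptide gene Npy (0.82), and Myoc was closest to the actin regulator Gsn (0.82). Cilp and Prg4 shared their closest gene, Gas1, at 0.83 and 0.88. Among themselves Cilp and Prg4 were most alike at 0.74, followed by Angptl7 and Cilp at 0.67, whereas Cytl1 was unlike Myoc (0.05), Cilp (0.05) and Prg4 (-0.20). The sums hold both classes, and in chondrocyte-like cells Cytl1 stood far above Cilp and Prg4. These r do not speak for fibroblast-like cells alone, where most Control cells with Cytl1 also held Cilp and Prg4.

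Genes of the same tissues and families, on lists that hold none of the 5, were tested with edgeR's quasi-likelihood test on class sums (n = 2 preparations per group, Benjamini-Hochberg adjustment over all genes). The lists were chosen with earlier results of these data known, so counts by list are a description. CPM of list genes are TMM-scaled, unlike the plain CPM of the 5 genes and of marker sums. In fibroblast-like cells 23.4% of 12264 genes passed, 12.0% higher and 11.4% lower after fracture. In chondrocyte-like cells 45.6% of 17065 genes passed, with 23.8% higher and 21.8% lower. Before adjustment p was under 0.05 for 37.8% and 53.7% of the genes in the 2 classes. Without TMM scaling the chondrocyte-like calls were 2743 higher and 5380 lower, against 4065 and 3724 with it. Leaving out Fracture 1 or Fracture 2 reduced the fibroblast-like calls to 385 or 408 lower and 455 or 424 higher, from 1392 and 1474.

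Joint-surface genes of this list leaned down in fibroblast-like cells. Clu, Vit and Cilp2, named below, were also among the leading genes of the articular-like subcluster made without integration. That subcluster held 256 Control and 13 Fracture cells, so their falls are no separate support for those of the 5 genes. Of 17 articular surface and joint genes tested, 9 fell and 1 rose, with a median log2 difference of -0.86 against -0.02 for all genes. Leaving out 1 preparation gave 7 to 11 lower and 1 to 6 higher, the 6 without Control 1. Clu, which encodes the secreted chaperone clusterin, stood at 6548, 3206, 153 and 228 CPM, a fall by 4.68 ± 0.42 on the log2 scale (adjusted p = 0.00107, edgeR). The matrix protein gene Vit stood at 423, 271, 16.6 and 12.7 CPM (-4.58 ± 0.27, adjusted p = 0.000326, edgeR), and Cilp2, the paralogue of Cilp, at 1291, 614, 209 and 174 CPM (-2.32 ± 0.34, adjusted p = 0.0056, edgeR). Creb5, a transcription factor of superficial cartilage, stood at 158, 183, 62.0 and 65.7 CPM and fell by 1.41 ± 0.13 on the log2 scale. Erg was not called, at 26.4, 12.3, 15.6 and 15.9 CPM, and Dkk3 was the gene that rose, from 118 and 84.7 CPM to 233 and 250 CPM.

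In chondrocyte-like cells the same list split. Of 18 genes tested 7 rose and 6 fell, with a median of 0.05 against -0.01 for all genes. Vit (-2.07 ± 0.07), Clu (-1.56 ± 0.09), Cilp2 (-0.91 ± 0.08) and Creb5 (-0.96 ± 0.24) fell, each with non-overlapping preparations. Frzb, a secreted Wnt antagonist, rose from 67.7 and 67.4 CPM to 615 and 589 CPM, and Chrdl2, a secreted BMP antagonist, rose from 3.01 and 2.16 CPM to 45.8 and 43.3 CPM. The joint-forming factor Gdf5 (1.63 ± 0.11) and the transcription factor Erg (2.02 ± 0.11) rose too. The low Vit, Clu and Cilp2 of chondrocyte-like cells were thus accompanied by higher levels of other genes linked to joints.

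Lists tied to single genes gave smaller counts. Of 9 hyaluronan and lining layer genes 5 fell and 1 rose in fibroblast-like cells, with a median of -1.75. Clic5, a marker of lining cells, fell from 56.8 and 221 CPM to 15 and 18.7 CPM, and Cd44, the hyaluronan receptor that also binds lubricin, rose from 166 and 264 CPM to 423 and 420 CPM. In chondrocyte-like cells 3 of 10 lining layer genes rose and 2 fell, with a median of 0.08. Of the relatives of Angptl7, Angptl1 rose from 82.5 and 57.2 CPM to 396 and 410 CPM and Angptl2 from 93.8 and 86.1 CPM to 384 and 388 CPM in fibroblast-like cells, 2 of the 4 tested, and none fell. In chondrocyte-like cells 2 of 5 rose and 1, Angptl2, fell. The olfactomedin family of Myoc had 3 genes higher and 2 lower of 6 in fibroblast-like cells, and 4 higher and 2 lower of 8 in chondrocyte-like cells. In fibroblast-like cells Olfml2a (-2.45 ± 0.24) and Gldn (-1.92 ± 0.36) were those that fell.

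Growth factors that CILP binds, with their receptors, had 2 genes higher and 3 lower of 7 in fibroblast-like cells. Igf1 rose from 204 and 111 CPM to 690 and 709 CPM and Tgfb2 from 58.2 and 54.3 CPM to 146 and 186 CPM, while Tgfb1 (-0.66 ± 0.13) and the receptor gene Tgfbr1 (-1.26 ± 0.14) fell. In chondrocyte-like cells 3 of 7 rose, among them Igf1 at 17.3, 14.9, 65.3 and 64.6 CPM, and 1 fell. The proposed receptors of CYTL1 and PRG4 had 1 higher and 2 lower of 3 in fibroblast-like cells, and 1 of each of 4 in chondrocyte-like cells. Both receptor calls that were lower in fibroblast-like cells were lost with DESeq2, and 0 or 1 was left when a preparation was left out.

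Callus stroma and cartilage matrix genes moved mostly up in fibroblast-like cells, while tendon and adventitial genes went both ways. Of 8 callus stroma genes 6 rose and none fell in fibroblast-like cells, with a median of 2.79, and Cthrc1, a collagen regulator of healing tissue, stood at 90.7, 29.0, 2047 and 1935 CPM. Of 11 cartilage matrix genes 10 rose there, with a median of 2.06, and Col2a1, the main collagen of cartilage, stood at 1773, 1395, 9277 and 7856 CPM. The sum of 10 chondrocyte markers was also higher after fracture in some classes that do not make cartilage, BMSC-like cells among them. It stood at 2390, 1083, 15528 and 15079 CPM in endothelial-like cells and 1033, 183, 10056 and 6284 CPM in smooth muscle-like cells. In osteoblast-like cells it was lower, at 5941, 5547, 4766 and 4703 CPM. The part of RNA from cartilage cells in the fibroblast-like values was not tested. In chondrocyte-like cells callus stroma genes had 5 higher and 1 lower of 8, and cartilage matrix genes 4 higher and none lower of 11, which became 1 higher and 1 lower without TMM scaling and 1 to 5 higher when a preparation was left out. Tendon and ligament genes had 4 higher and 3 lower of 12 in fibroblast-like cells and 8 higher and 2 lower of 12 in chondrocyte-like cells. Chad of this list, the gene close to Cytl1, fell by 3.55 ± 0.25 and by 1.53 ± 0.11 on the log2 scale in the 2 classes. Adventitial fibroblast genes had 3 higher and 4 lower of 10 in fibroblast-like cells and 6 higher and 2 lower of 9 in chondrocyte-like cells. In fibroblast-like cells Gsn, the gene closest to Myoc, fell from 5870 and 6773 CPM to 814 and 852 CPM. Chad and Gsn were found alike over sums of both groups to genes picked for their falls. Nothing is therefore read from their own falls.

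**Figure D5:**
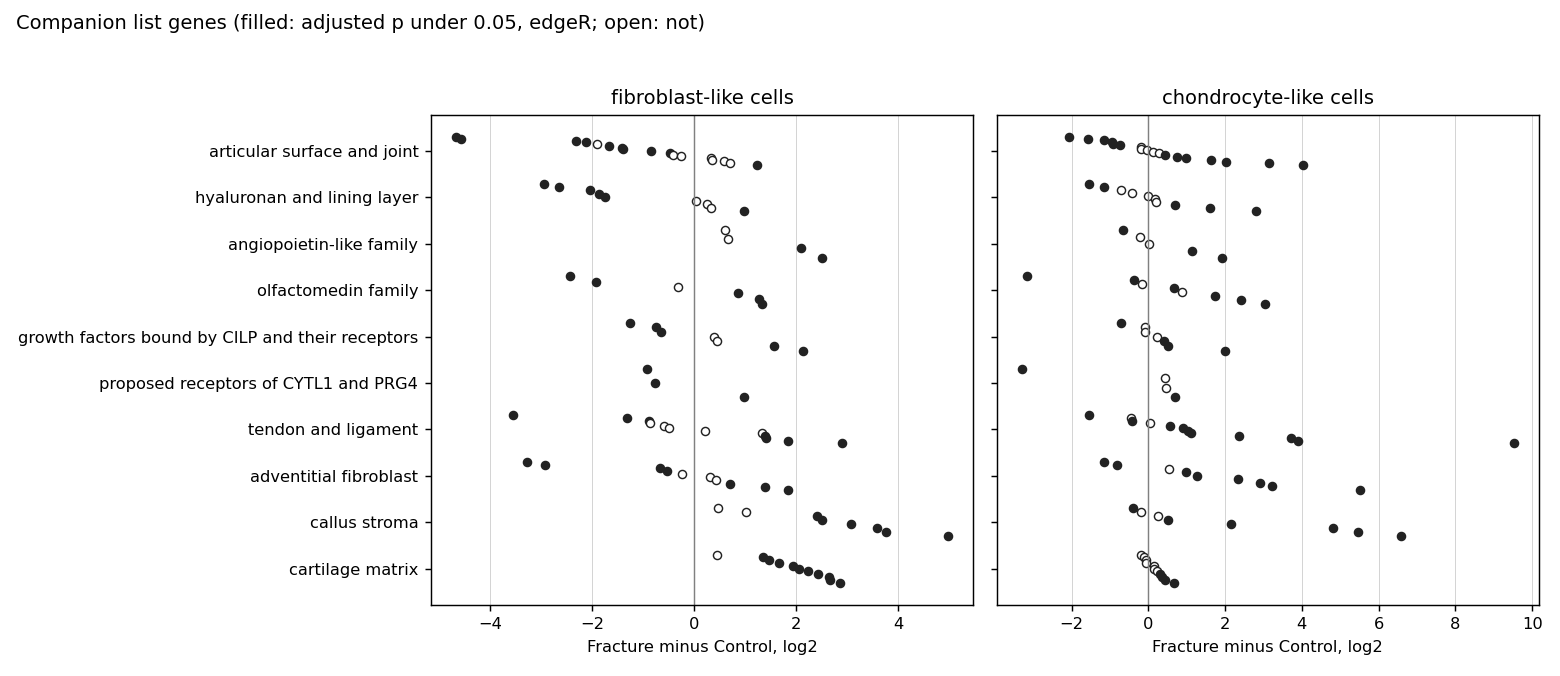
Log2 difference of Fracture from Control for each gene of the 10 companion lists, by class, with filled points for genes past an adjusted p of 0.05 (edgeR quasi-likelihood test) and open points for the rest. Articular genes lie mostly below 0 in fibroblast-like cells and on both sides of 0 in chondrocyte-like cells, while callus stroma and cartilage matrix genes lie mostly above 0.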

How the data were processed

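Single-cell RNA was profiled with the Chromium 3′ kit and sequenced on a NextSeq instrument. The authors deposited unnormalised UMI counts for every gene and barcode, made on mm10. Per the labels' processing notes bcl2fastq 2.19.1.403, UMI-tools 1.0.0, STAR 2.7.3a and featureCounts 1.6.4 were used, while the study's methods name STARsolo and EmptyDrops, so the counting step is not settled. The tables held 28956 genes. Control 1 held no symbol beginning with U, so the 290 such genes were left out everywhere and are not analysed here. Barcodes with 500 to 6000 genes and at most 25% mitochondrial UMIs (27 genes) were kept, 45390 of 48903. Scrublet (scanpy 1.11.5) called 541 doublets, which stayed in. That share is unevenly spread over preparations, from 5 to 240, and removal of the top 6% of scores was added as an alternative.

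Cells were integrated in Seurat 5.3.0 (R 4.3.3, canonical correlation anchors, 30 dimensions) and clustered on 12 components at resolution 0.1, then within each class at resolution 0.3, without the 5 genes or cell cycle genes. UMIs were summed per class and preparation. Log2 differences of the 5 genes used TMM-scaled CPM with a pseudocount of 0.5, and their SE is that of a difference of 2 means. Those of companion genes are edgeR's own estimates. The value after ± is there the size of the difference divided by the square root of its F statistic. That statistic borrows spread from other genes, so the value can be smaller than the gene's own spread between preparations. Companion genes were tested with edgeR 4.0.16 (quasi-likelihood, filterByExpr, Benjamini-Hochberg, adjusted p under 0.05), and the script was tested on simulated data. An exact permutation test of 2 against 2 preparations cannot go below p = 0.333, so none was used. The genes named were the 5 genes, genes of the companion lists, and for each of the 5 the genes most like it. The 5 genes and all lists were chosen with earlier results of these data known. Alternatives covered scaling, DESeq2 1.42.0, low-count filters, integration, resolution, thinning, doublets, depth, the replicate block and leaving out each preparation. Preparations of the same number did not deviate together (correlations 0.023 and 0.0085), and with 2 pairs the numbers were not taken to pair the samples.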

Additional observations from a re-analysis of the deposited data

Results flagged for a closer look

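Cilp and Prg4 were lower after fracture in fibroblast-like cells but higher in BMSC-like cells. In BMSC-like cells the log2 difference was 2.66 ± 2.00 for Cilp and 1.68 ± 1.08 for Prg4 (SE, n = 2 preparations per group), against -3.81 and -2.26 in fibroblast-like cells. Every Fracture preparation lay above every Control one in BMSC-like cells and below in fibroblast-like cells, and the difference between the classes was not tested. The values rest on Control levels of 1.28 to 45.6 CPM, and Control 1 lay nearer to the Fracture preparations than to Control 2 in CPM for both genes. In endothelial-like cells the log2 differences were 1.12 ± 1.35 for Cilp and 1.10 ± 0.83 for Prg4, with overlapping preparations. The BMSC-like class itself differed between the groups, since its 7 BMSC markers summed to 26389, 28223, 1912 and 2253 CPM. It held 1046 and 1127 Fracture cells after integration and 569 and 602 without it. The part of these changes in the Cilp and Prg4 values was not tested.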

How the results depend on the processing

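Main values stand in the report, and causes of the shifts were not tested unless the construction shows them. Leaving out TMM shifted the scale by -0.08 (fibroblast-like) and -0.15 (chondrocyte-like) on the log2 scale, less for genes near the pseudocount, giving Myoc -5.05 and -4.70 and chondrocyte-like Cytl1 -3.92. Classes made without integration gave -8.40, -6.46, -4.44 and -3.15 for Cytl1, Myoc, Cilp and Prg4 in fibroblast-like cells and -3.59, -3.76, -1.99 and -0.82 (SE 1.27) in chondrocyte-like cells. Weighting to the Control mix of integrated subclusters gave -4.84 and -1.49 for fibroblast-like Myoc and Prg4 and -3.45 and -4.82 for chondrocyte-like Cytl1 and Myoc. Alternatives chosen after seeing the data were the mix without integration, the subclusters without integration and the removal of the top 6% of doublet scores. The first gave -3.00, -2.88, -2.82, -0.13 and, with the sign turned, 0.004 for Cytl1, Angptl7, Myoc, Cilp and Prg4 in fibroblast-like cells, and -1.09, -2.21, -0.80 and -0.16 for Cytl1, Myoc, Cilp and Prg4 in chondrocyte-like cells. The last gave -4.73 and -2.78 for fibroblast-like Myoc and Prg4 and -3.84 for chondrocyte-like Myoc. Removing called doublets or cells under 3000 UMIs left all 18 values and counts within their replicate spread or within 1.5 times.

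Leaving out 1 preparation gave log2 differences of -7.59 to -6.95 (Cytl1), -8.01 to -6.37 (Angptl7), -5.04 to -4.90 (Myoc), -4.25 to -3.35 (Cilp) and -2.43 to -2.09 (Prg4) in fibroblast-like cells. In chondrocyte-like cells the ranges were -3.85 to -3.69, -1.44 to -0.057, -4.67 to -4.47, -2.89 to -2.48 and -4.10 to -2.71. Genes called lower ranged from 385 to 1850 and higher from 424 to 2113 in fibroblast-like cells, and from 1658 to 4386 and 2307 to 4400 in chondrocyte-like cells. Each low end came without Fracture 1 or Fracture 2, where the lone preparation is assumed to vary like Control. Companion genes called lower in fibroblast-like cells ranged from 17 to 31 around 28, the low end without Fracture 1 or Fracture 2. Single lists moved by over 1.5 times as well, in both classes. In fibroblast-like cells tendon genes ranged from 2 to 6 higher and 1 to 5 lower, adventitial genes from 2 to 5 both ways, olfactomedin genes from 1 to 3 both ways, CILP-bound factors and receptors from 2 to 4 higher and 1 to 3 lower, and lining genes from 0 to 3 higher. DESeq2 called 822 lower and 836 higher in fibroblast-like cells, and without a filter edgeR called 2320 higher. With the replicate block 1390 were lower and 1491 higher in fibroblast-like cells and 3460 and 3924 in chondrocyte-like cells, and no count moved by over 1.5 times.

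The highest Control level over subclusters was 20476 (Cytl1) and 771 CPM (Myoc) in fibroblast-like cells and 6057 and 487 CPM in chondrocyte-like cells at resolution 0.15, and 34086, 1748, 5613 and 454 CPM at 0.6. Without integration it was 15341 (Cytl1) and 45747 CPM (Prg4) in fibroblast-like cells and 2537 (Cytl1), 63.9 (Myoc) and 1309 CPM (Prg4) in chondrocyte-like cells. The Fracture minus Control share of cells with a UMI, in percentage points, was -35.9 (Cytl1) and -10.8 (Myoc) in fibroblast-like cells and -43.3 (Cytl1), -0.228 (Angptl7), -3.73 (Cilp) and -1.87 (Prg4) in chondrocyte-like cells at 3000 UMIs. Without thinning it was -12.5 (Myoc), -6.29 (Cilp) and -13.2 (Prg4) in fibroblast-like cells and -43.4 (Cytl1), -0.461 (Angptl7), -2.68 (Myoc), -8.04 (Cilp) and -1.11 (Prg4) in chondrocyte-like cells. Few UMIs stand behind the Fracture values of Angptl7 and Myoc, since under 100 of each lay in a preparation's fibroblast-like cells.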
